A study of Rattus norvegicus with 8 samples.

Results

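The 10 glycolysis enzymes described here are Hk1, Hk2, Hk3, Gpi, Pfkl, Pfkm, Pfkp, Pgk1, Pkm and Ldha. They were chosen by gene symbol out of the 37209 genes of the count table, with earlier results of these data known. mRNA was sequenced from 4 left carotid arteries of male Sprague-Dawley rats whose inner layer had been injured with a balloon catheter, and from 4 right carotid arteries left undamaged as the self-control of the operated rats, all taken at 2 weeks. Injured and control arteries thus came from operated rats, but no source used here says which injured and which control artery shared a rat, and the labels give no age. The p-values therefore measure the spread between these arteries. The level of a gene is given in CPM, its counts brought to a common library size with TMM factors, and the libraries held between 11459632 and 16658089 counts.

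Glycolysis splits glucose into pyruvate in the cytosol and yields ATP without oxygen, and lactate dehydrogenase can then turn pyruvate into lactate. Hexokinase traps glucose in the cell as glucose-6-phosphate, and phosphofructokinase makes the committed step, so both are points of control. Smooth muscle of the artery wall is known for a high rate of glycolysis even when oxygen is present, and dividing smooth muscle cells and activated macrophages raise it further.

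The tissue was checked first. Contractile smooth muscle markers summed to 10398 to 50154 CPM per artery, although the extraction protocol names a brain region. Of the 6 brain markers, the neuron genes Neurod6, Gad2, Slc17a7, Gad1 and Rbfox3 reached at most 2, 2, 8, 27 and 34 counts in any library. The 6 summed to 2.15 to 29.7 CPM in the controls and 9.36 to 199 CPM after injury, where Gfap, a gene of glia, took most of the sum. Gfap, the 1 brain marker tested with all arteries, was not called (adjusted p = 0.142, edgeR), but without control artery 4 it was called higher (log2 fold change 6.06, adjusted p = 0.00585, edgeR) and Gad1 was called lower. Control artery 4 stood apart from the other controls, with a correlation across genes of 0.843 to 0.859 against 0.984 to 0.985 among the others. Its 7 sympathetic neuron markers summed to 9080 CPM, against 2.46 to 4.85 CPM in the other controls. Injured artery 3 followed with 1347 CPM and injured artery 1 with 110 CPM, and injured arteries 2 and 4 had 2.25 and 4.42 CPM. The fold changes of the 9 enzymes tested are therefore also given without control artery 4, and with injured artery 3 left out as well. Leaving out both was chosen after seeing the data. Of the other markers after injury, edgeR called 6 of 6 proliferation genes higher (6.91 to 12.7 CPM against 75.7 to 112 CPM), 2 endothelial genes higher and 1 lower, 1 fibroblast gene lower, and 0 Schwann cell, 0 adipocyte and 0 red cell genes. Without control artery 4, 1 Schwann cell gene was called higher (Sox10, log2 fold change 3.63, adjusted p = 0.0275, edgeR), as was 1 sympathetic neuron gene, and 1 endothelial gene in place of 2. In these whole arteries, fewer cells of a type and less RNA per cell cannot be told apart.

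Of the 10 enzymes, 9 had enough counts for the comparison of injured with control arteries, and Hk3 alone was called differentially expressed, which required an FDR (false discovery rate) under 0.05 together with more than a 2-fold change. Across the 14359 genes tested, 10.9% passed both criteria, 8.31% as higher and 2.57% as lower after injury. The number of enzymes called is thus near the background, and what follows describes the single enzymes. By the FDR alone, Hk3 was again the only enzyme, against 17.2% of all genes. The groups did not overlap in CPM for 2 enzymes, Hk3 and Pfkm, against 23.7% of all genes. For Hk3 this was set in advance, since only its injured arteries had enough counts for the comparison. Among the 9 enzymes, 2 had a positive log2 fold change and the median was -0.53, whereas the median of all genes tested was -0.057. Without control artery 4, the median of the enzymes was 0.096 and that of all genes was 0.030, and 6 enzymes had a positive value.

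Promoter sequences of the enzyme on which the comparison turned (Hk3), of the other enzyme without overlap between the groups (Pfkm) and of Ldha, a textbook target of hypoxia-inducible factor, are shown for reference. They run from 250 bases before to 50 bases after the start of the gene in RefSeq's GRCr8 assembly, 5′ to 3′ on the gene's strand, which is the plus strand for all 3. Capitals mark the letters ACGTG, a form of the core of the hypoxia response element, or their reverse complement CACGT. The form GCGTG was not searched for and is not marked. Hk3 lies at chr17:9604781-9605080, Pfkm at chr7:131113849-131114148 and Ldha at chr1:106507842-106508141.
Hk3: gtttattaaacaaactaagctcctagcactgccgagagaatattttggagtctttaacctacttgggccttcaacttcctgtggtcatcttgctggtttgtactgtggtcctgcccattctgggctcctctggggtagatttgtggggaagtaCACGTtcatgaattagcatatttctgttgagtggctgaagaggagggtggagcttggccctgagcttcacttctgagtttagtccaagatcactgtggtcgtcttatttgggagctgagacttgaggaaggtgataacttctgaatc
Pfkm: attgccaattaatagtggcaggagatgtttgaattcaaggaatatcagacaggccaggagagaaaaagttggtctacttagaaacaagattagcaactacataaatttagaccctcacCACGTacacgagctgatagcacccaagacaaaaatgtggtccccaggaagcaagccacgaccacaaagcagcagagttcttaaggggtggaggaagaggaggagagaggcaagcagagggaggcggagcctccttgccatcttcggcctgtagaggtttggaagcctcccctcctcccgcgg
Ldha: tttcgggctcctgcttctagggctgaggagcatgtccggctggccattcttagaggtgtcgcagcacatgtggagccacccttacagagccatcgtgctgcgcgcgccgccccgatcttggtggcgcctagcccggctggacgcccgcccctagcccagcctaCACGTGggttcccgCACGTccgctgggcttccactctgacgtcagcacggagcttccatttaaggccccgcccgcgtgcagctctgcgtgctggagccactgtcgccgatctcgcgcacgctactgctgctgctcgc
The motif was found 1 time in Hk3, 1 time in Pfkm and 3 times in Ldha, where a match on each strand overlaps in the first run of capitals. Of the 9 enzymes with a promoter in the RefSeq table (10 promoters, as Hk1 has 2), 5 held it in at least 1 promoter, namely Hk1, Hk3, Gpi, Pfkm and Ldha, and 19.3% of all 33469 promoters held it. These are matches of letters and not measured sites.

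Hexokinases take the first step. Hk3, a hexokinase known mainly from myeloid cells, had 1, 0, 4 and 4 counts in control arteries 1 to 4 and 166, 390, 270 and 322 counts in injured arteries 1 to 4. Every injured artery lay far above every control artery. In CPM, Hk3 rose from 0.157 ± 0.143 (SD, n = 4) to 19.9 ± 8.83 (SD, n = 4), or by 6.87 ± 0.72 (standard error) on the log2 scale, and the edgeR quasi-likelihood test gave it an adjusted p of 0.000822. The summed counts, 1148 against 9, gave a ratio of 116 after scaling, with an exact 95% interval of 60.7 to 254 that covers counting error only. Over the 70 relabellings of the arteries, the exact permutation test on log2 values of Hk3 gave p = 0.0286, two-sided, the smallest that 4 arteries against 4 allow. With control counts this low, Hk3 had enough counts for the comparison only because all injured arteries were high. Its lack of overlap and this p were thus set in advance and are no further support. Without control artery 4, the log2 fold change was 7.24 (adjusted p = 0.000475, edgeR), and Hk3 was again the only enzyme called, against 16.2% of all genes. With control artery 4 and injured artery 3 both left out, it was 7.35 (adjusted p = 0.00024, edgeR), against 17.2% of all genes called.

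Macrophage markers moved with Hk3. All 9 of them were called higher after injury, and their sum was 186 to 263 CPM in the controls and 1722 to 2604 CPM in the injured arteries, with no overlap. Both neutrophil markers that could be tested were called higher (1 without control artery 4), and the 4 listed summed to 0.973 to 1.52 CPM in the controls and 7.04 to 23.4 CPM in the injured arteries. Whether these cells carry the Hk3 signal was not tested.

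Hk2, the inducible hexokinase of muscle and of many dividing cells, had 30.5, 61.8, 38.1 and 22.7 CPM in the control arteries and 46.2, 84.3, 48.8 and 55.4 CPM in the injured arteries. The injured arteries were mostly higher, but control artery 2 lay above injured arteries 1, 3 and 4. The log2 fold change of Hk2 was 0.62 (standard error 0.33, adjusted p = 0.242, edgeR), and without control artery 4 it was 0.43 (adjusted p = 0.299, edgeR). With injured artery 3 also left out, it was 0.51 (adjusted p = 0.212, edgeR). Hk1, the hexokinase found in most tissues and abundant in neurons, had 162, 140, 144 and 569 CPM in the control arteries and 141, 118, 263 and 127 CPM in the injured arteries. Control artery 4 and injured artery 3 stood above the others, and the remaining arteries of both groups lay between 118 and 162 CPM. The log2 fold change of Hk1 was -0.65 (standard error 0.52, adjusted p = 0.443, edgeR). It turned to 0.12 without control artery 4, where the adjusted p from edgeR was 0.769. With injured artery 3 also left out, Hk1 had -0.21 (adjusted p = 0.171, edgeR).

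**Figure D1:**
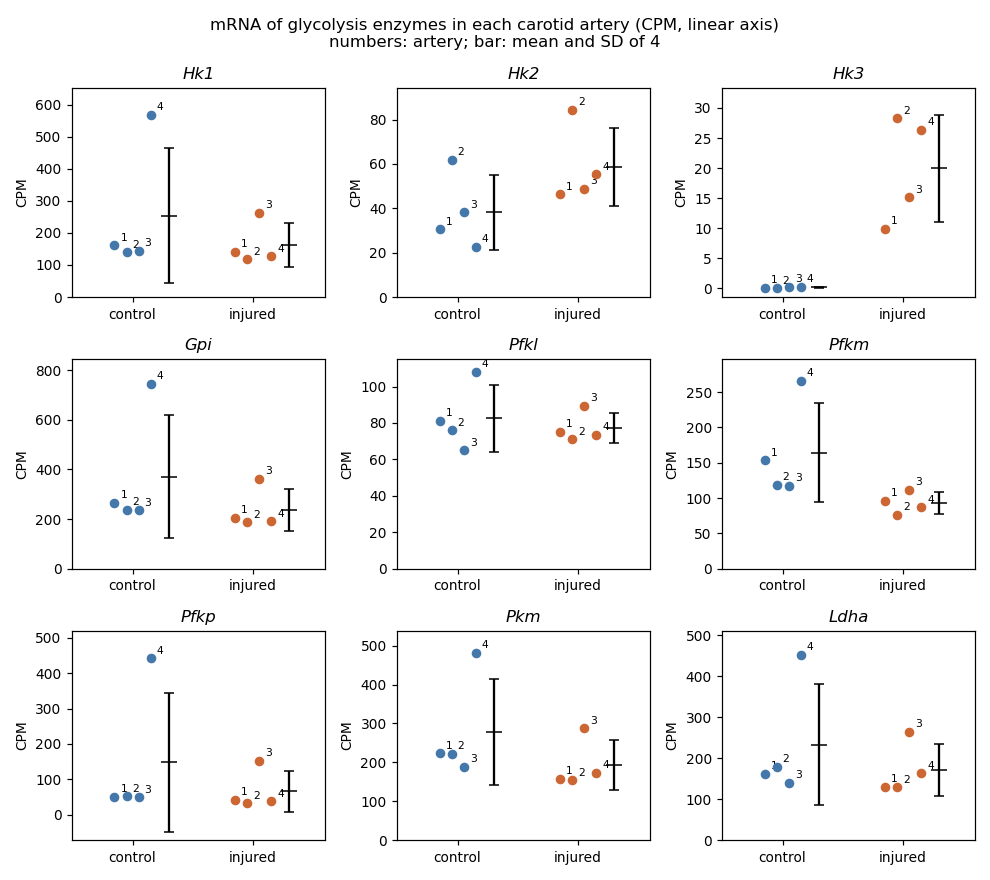
Level of each of the 9 glycolysis enzymes tested, in CPM on a linear axis, with 1 numbered point per artery for the 4 control (blue) and 4 injured (orange) arteries, and a black bar for the mean and SD. Hk3 is near 0 in every control and between 9.93 and 28.3 CPM after injury, while for Hk1, Gpi, Pfkp, Pkm and Ldha control artery 4 and injured artery 3 stand above the rest of their groups.

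Because a share of counts within a library does not depend on the scaling between libraries, the composition of the hexokinases was also compared. It is a share of reads and not of molecules, since no transcript length was used. Hk3 took 0.0375%, 0%, 0.152% and 0.047% of the hexokinase counts in control arteries 1 to 4 and 5.05%, 12.3%, 4.64% and 12.6% in injured arteries 1 to 4. The 2 groups did not overlap, and the exact permutation test gave p = 0.0286, which became 0.2 after adjustment over the 7 shares tested. This lack of overlap rests on the same low control counts and adds no support to the level of Hk3. No share could pass that adjustment on its own at this number of arteries. Hk2 took 17.8% ± 11.2 (SD, n = 4) of the hexokinase counts in the controls and 25.4% ± 8.93 (SD, n = 4) after injury, and Hk1 took 82.1% ± 11.2 (SD, n = 4) and 66.0% ± 12.7 (SD, n = 4). Without control artery 4, the injured arteries differed from the controls by 2.90 percentage points for Hk2, -11.5 for Hk1 and 8.59 for Hk3. The shares of Hk1 and Hk2 overlapped between the groups, with an adjusted p of 0.52 for Hk2 and 0.333 for Hk1 in the exact permutation test.

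Gpi, the isomerase that turns glucose-6-phosphate into fructose-6-phosphate, had 267, 238, 235 and 745 CPM in the control arteries and 205, 187, 363 and 191 CPM in the injured arteries. Its log2 fold change was -0.65 (standard error 0.43, adjusted p = 0.352, edgeR), and -0.063 without control artery 4 (adjusted p = 0.866, edgeR). With injured artery 3 also left out, the 3 injured arteries lay below the 3 controls, at a log2 fold change of -0.34 (adjusted p = 0.0277, edgeR), which is short of a fold change of 2.

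Phosphofructokinase is made of 3 kinds of subunit, from the liver-type gene Pfkl, the muscle-type gene Pfkm and the platelet-type gene Pfkp. Pfkm had 153, 119, 118 and 266 CPM in the control arteries and 95.8, 76.0, 112 and 86.8 CPM in the injured arteries. All injured arteries lay below all controls, although injured artery 3 at 112 CPM came close to control artery 3 at 118 CPM. The log2 fold change of Pfkm was -0.82 (standard error 0.28, adjusted p = 0.082, edgeR), so it was not called. Its exact permutation test gave an unadjusted p = 0.0286, the smallest possible, which any gene without overlap between the groups would have. DESeq2 gave Pfkm an adjusted p of 0.026, also short of a fold change of 2. Without control artery 4, its log2 fold change was -0.49 (standard error 0.16, adjusted p = 0.0469, edgeR). Contractile smooth muscle markers had a lower sum after injury, 10398 to 16382 CPM against 17283 to 50154 CPM, with 4 of 6 called lower (6 of 6 without control artery 4), and their part in the Pfkm values was not tested.

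Pfkp had 49.4, 51.4, 48.8 and 442 CPM in the control arteries and 42.1, 31.5, 153 and 37.8 CPM in the injured arteries. Control artery 4 had 8.59 times the level of the next control, and injured artery 3 had 3.63 times that of the next injured artery, the largest of these ratios among the 9 enzymes. The log2 fold change of Pfkp was -1.16 (standard error 0.90, adjusted p = 0.425, edgeR) with all arteries, 0.40 without control artery 4 (adjusted p = 0.608, edgeR) and -0.43 without both (adjusted p = 0.0291, edgeR). The direction of Pfkp thus turned with the arteries used. Of the 3 genes, Pfkl had the narrowest range in CPM, from 64.9 to 108 CPM in the controls and from 71.1 to 89.5 CPM after injury, and its log2 fold change was -0.094 (standard error 0.17), far from the threshold at an adjusted p in edgeR of 0.737. Pfkl had 0.058 without control artery 4 (adjusted p = 0.75, edgeR) and -0.016 without both arteries (adjusted p = 0.918, edgeR).

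Within the phosphofructokinase counts, Pfkp took 17.4%, 20.9%, 21.1% and 54.1% in control arteries 1 to 4 and 19.8%, 17.6%, 43.1% and 19.1% in injured arteries 1 to 4. The share was thus high in control artery 4 and injured artery 3 and much alike elsewhere. Pfkm took 54.0%, 48.3%, 50.8% and 32.6% in the control arteries and 45.0%, 42.5%, 31.6% and 43.8% in the injured arteries, so that only control artery 4 kept the groups from parting. Pfkl took 25.2% ± 8.06 (SD, n = 4) in the controls and 34.4% ± 6.35 (SD, n = 4) after injury. The injured arteries differed from controls 1 to 3 by 5.10 percentage points for Pfkp, -10.3 for Pfkm and 5.19 for Pfkl. With all arteries, the adjusted p of the exact permutation test was 0.7 for Pfkp, 0.52 for Pfkm and 0.333 for Pfkl.

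**Figure D2:**
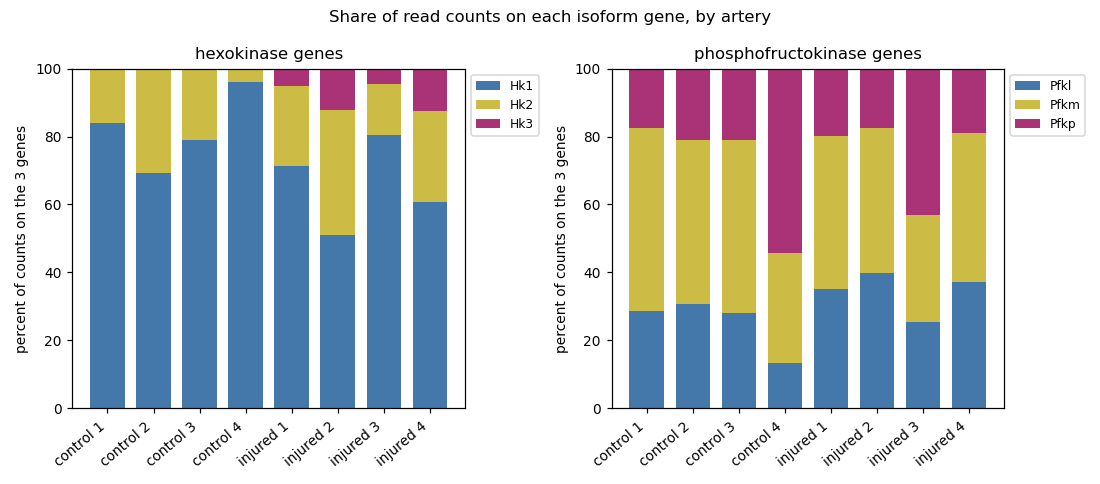
Percent of the read counts of the 3 hexokinase genes (left) and of the 3 phosphofructokinase genes (right) that fell on each gene, with 1 stacked bar per artery. Hk3 is seen in the injured arteries only at this scale, at 4.64% to 12.6%, and Pfkp takes 54.1% in control artery 4 and 43.1% in injured artery 3 but at most 21.1% elsewhere.

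Pgk1, the kinase of the first ATP-yielding step, had 0 counts in all 8 libraries and could not be compared. For a gene whose reads could be counted, a 0 would allow a level of up to 3 counts, which is 0.168 to 0.246 CPM, for counting error only. For Pgk1 no such limit can be set. Pgk1 is X-linked, and 592 of the 606 protein-coding genes that RefSeq's GRCr8 annotation places on chromosome X had 0 counts in every library (97.7%), against 9.62% of the autosomal genes and at most 15.1% on any one autosome. The 0 of Pgk1 is therefore shared with nearly the whole chromosome in this table and says nothing of its expression in the artery.

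Pkm, which makes pyruvate and whose splice forms the table does not tell apart, had 224, 222, 188 and 482 CPM in the control arteries and 158, 154, 288 and 173 CPM in the injured arteries. Control artery 4 was the highest and injured artery 3 the second, and the other injured arteries lay below the other controls. The log2 fold change of Pkm was -0.53 (standard error 0.35, adjusted p = 0.343, edgeR). It was -0.13 without control artery 4 (adjusted p = 0.692, edgeR) and -0.39 without both of these arteries (adjusted p = 0.0245, edgeR). Ldha, the subunit of lactate dehydrogenase favoured in tissues that make lactate, had 162, 179, 140 and 452 CPM in the control arteries and 131, 129, 264 and 163 CPM in the injured arteries. Its log2 fold change was -0.44 (standard error 0.42, adjusted p = 0.518, edgeR) and turned to 0.096 without control artery 4 (adjusted p = 0.809, edgeR). Without control artery 4 and injured artery 3, Ldha had -0.19 (adjusted p = 0.317, edgeR). Ldha took 51.2% ± 13.8 (SD, n = 4) of the Ldha and Ldhb counts in the controls and 51.7% ± 7.32 (SD, n = 4) after injury, and the exact permutation test gave an adjusted p of 0.971, with a difference of 7.31 percentage points when control artery 4 was left out. Pkm and Ldha have near-identical copies, with 19 and 30 pseudogenes named after them in the annotation, and how reads with several matches were counted is not given in the sources used here, so their levels are uncertain.

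Control artery 4 and injured artery 3 were the 2 highest of the 8 arteries for 6 of the 9 enzymes, namely Hk1, Gpi, Pfkl, Pfkp, Pkm and Ldha, and for 16.6% of all genes tested. Control artery 4 exceeded 1.5 times the next control for 6 of the 9, namely Hk1, Gpi, Pfkm, Pfkp, Pkm and Ldha, and for 19.1% of all genes. Hk2 stood against this, with its lowest level of all 8 arteries in control artery 4. The sympathetic neuron markers were highest in the same 2 arteries, in the same order, and their part in these levels was not tested. With both arteries left out, 4 enzymes were lower at an FDR under 0.05, Gpi, Pfkm, Pfkp and Pkm, against 15.9% of all genes, with log2 fold changes of -0.34, -0.59, -0.43 and -0.39. This choice was made after seeing the data. The arteries left out were the highest of their groups for all 4 enzymes, so the spread being tested became narrower. No general decline of the enzymes was read from it. None of the 4 reached a fold change of 2, and the median of the 9 enzymes was then -0.21 against 0.0024 for all genes.

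**Figure D3:**
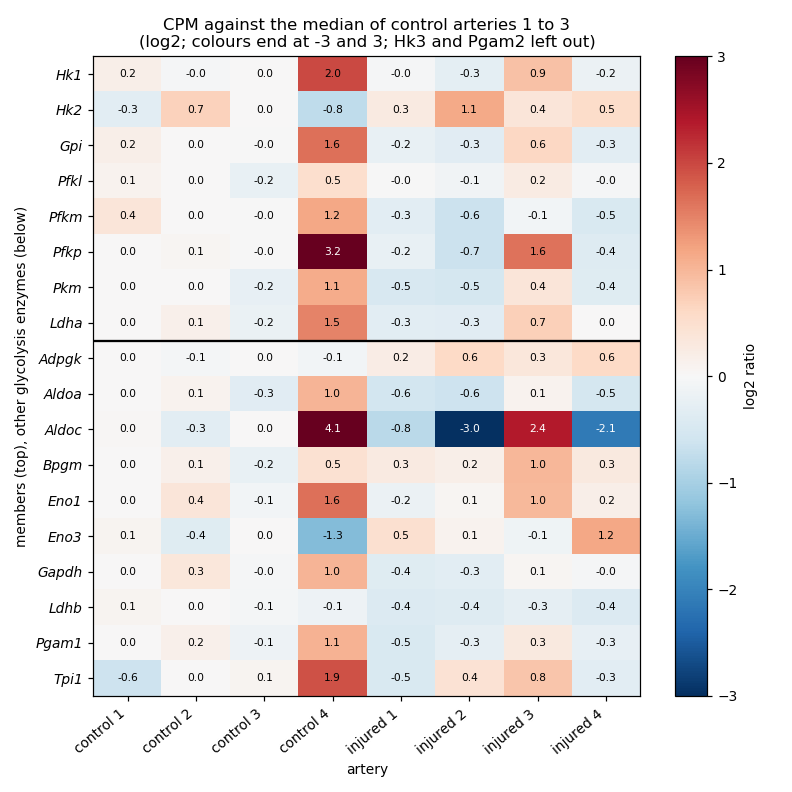
Level of 8 of the enzymes (top) and of 10 other glycolysis enzymes (below) in each artery as a log2 ratio of CPM to the median of control arteries 1 to 3, written in each cell, with red for higher and blue for lower. Hk3 and Pgam2 are left out because of their near-0 control levels, and the columns of control artery 4 and injured artery 3 are red for most genes, darkest for Pfkp (442 and 153 CPM) and Aldoc (438 and 133 CPM).

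The rest of the pathway was read from a list of 19 further glycolysis genes, of which 18 matched the table and 11 could be tested. The median log2 fold change of the 11 was -0.35 with all arteries and 0.36 without control artery 4. Pgam2, the muscle form of phosphoglycerate mutase, was the only one called. It had 5, 0, 2 and 5 counts in the control arteries and 56, 26, 53 and 141 counts in the injured arteries, without overlap. Like Hk3, Pgam2 could be tested only because all injured arteries were high, so its lack of overlap was set in advance. Pgam2 rose by 4.46 ± 0.86 (standard error) on the log2 scale, and its adjusted p in edgeR was 0.0107. Pgam2 had 4.77 without control artery 4 (adjusted p = 0.00918, edgeR). Skeletal muscle markers moved with it. Their sum was 88.5 to 257 CPM in the controls and 323 to 1173 CPM after injury, 7 of 9 were called higher, and injured artery 4 had the highest sum (1173 CPM) and the highest Pgam2 level (11.5 CPM). Eno3, the muscle enolase, was 54.7 CPM in injured artery 4 and 22.4 to 34.1 CPM in the other injured arteries, and its log2 fold change was 0.80 (adjusted p = 0.183, edgeR). The part of muscle tissue in these values was not tested.

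Adpgk, an ADP-dependent glucokinase, had 23.6 to 25.2 CPM in the controls and 29.5 to 38.0 CPM after injury, and Ldhb, the other lactate dehydrogenase subunit, had 180 to 210 CPM and 148 to 163 CPM. Neither pair of ranges overlapped. Their log2 fold changes of 0.49 and -0.35 had adjusted p-values of 0.0289 and 0.0464 from edgeR and were short of a fold change of 2, and without control artery 4 they were 0.46 and -0.39. Aldoc, the aldolase of brain and nerve cells, had 26.1, 20.3, 25.4 and 438 CPM in the control arteries and 14.4, 3.12, 133 and 5.81 CPM in the injured arteries. Apart from control artery 4 and injured artery 3, the injured arteries lay below the controls. Its log2 fold change was -1.70 (standard error 1.46, adjusted p = 0.47, edgeR), 0.71 without control artery 4 (adjusted p = 0.673, edgeR) and -1.60 without both (adjusted p = 0.0273, edgeR), where it passed both criteria. The log2 fold changes of Aldoa (aldolase), Pgam1 (mutase), Eno1 (enolase), Gapdh, Tpi1 (isomerase) and Bpgm (bisphosphoglycerate mutase) were -0.66, -0.49, -0.34, -0.55, -0.47 and 0.35, none of them called. Gapdh and Tpi1, which every cell uses, had only 19.9 to 52.3 CPM and 2.45 to 14.1 CPM. The annotation names 81 pseudogenes after Gapdh and 3 after Tpi1.

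**Figure D4:**
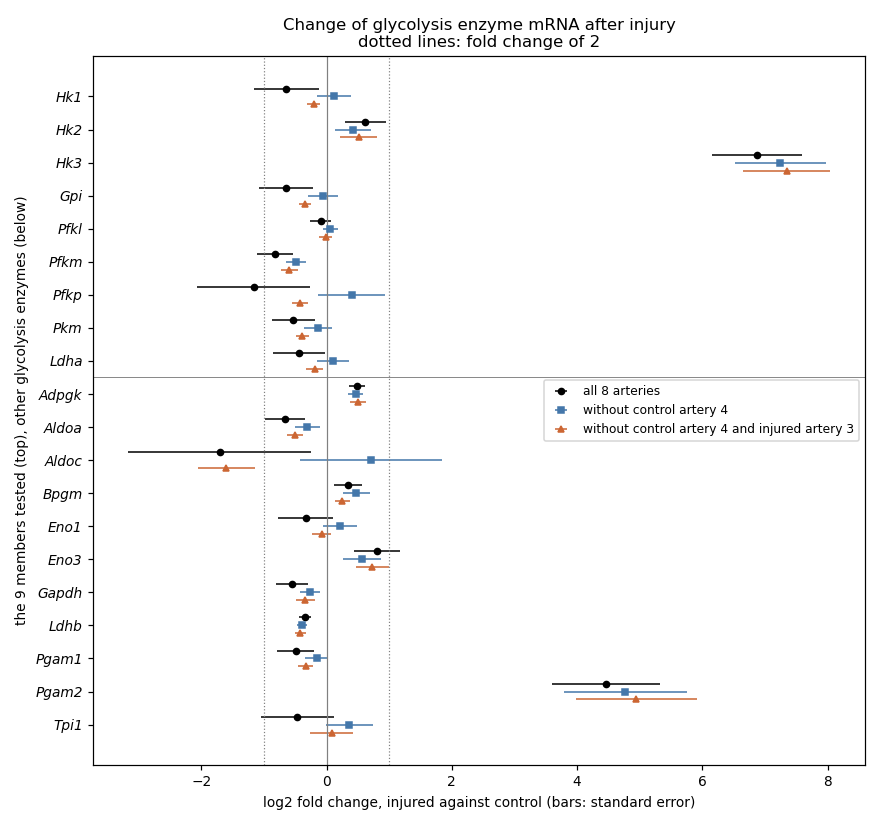
Log2 fold change, injured against control, with its standard error, for the 9 enzymes (top) and 11 other glycolysis genes (below), fitted with all 8 arteries (black), without control artery 4 (blue) and without control artery 4 and injured artery 3 (orange). Hk3 and Pgam2 lie far to the right in all 3 fits, while Hk1, Pfkl, Pfkp, Ldha, Aldoc, Eno1 and Tpi1 change sign without control artery 4.

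In the lists of steps around the pathway, only single genes were called lower after injury, and 2.57% of all genes tested were called lower. Calls of single genes in lists this small were not read as changes of a step. Of 6 transport genes tested, Slc2a4 (GLUT4, the insulin-responsive glucose carrier) was called. It had 108, 98.3, 76.2 and 43.4 CPM in the control arteries and 39.7, 16.2, 23.0 and 26.0 CPM in the injured arteries. Control artery 4 lay just above injured artery 1, and the groups did not overlap. Slc2a4 fell by 1.63 ± 0.35 (standard error) on the log2 scale, at an adjusted p of 0.0157 in edgeR, and the call was lost without injured artery 4. Its value was -1.85 without control artery 4 (adjusted p = 0.0024, edgeR). The median of the list was -0.16, and -0.059 without control artery 4. Slc16a3, a lactate exporter, had the largest positive value of that list, 0.35 (adjusted p = 0.495, edgeR), and the glucose carrier Slc2a1 had -0.11 (adjusted p = 0.631, edgeR).

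Among 6 control genes tested, Pdk4, a kinase that shuts off pyruvate dehydrogenase, was called, with 17.9, 51.3, 21.0 and 30.2 CPM in the control arteries and 13.9, 10.4, 12.2 and 14.6 CPM in the injured arteries. The groups did not overlap, and control artery 2 was the highest. Its log2 fold change was -1.24 (standard error 0.33, adjusted p = 0.0368, edgeR), and -1.24 without control artery 4 (adjusted p = 0.0315, edgeR). The median of the list was -0.32, and -0.24 without control artery 4. The Pdk4 call was lost without control artery 2 and without each 1 of the injured arteries. Pfkfb4, an enzyme that sets fructose-2,6-bisphosphate, had the largest positive value, 0.19 (adjusted p = 0.709, edgeR). Of 8 glycogen genes tested, Pygb, a glycogen phosphorylase, was called, at 374, 236, 273 and 355 CPM in the control arteries and 152, 115, 172 and 94.7 CPM in the injured arteries, also without overlap. Pygb fell by 1.22 ± 0.23 (standard error) on the log2 scale, where the adjusted p in edgeR was 0.0102, and had -1.15 without control artery 4 (adjusted p = 0.00852, edgeR). All 8 glycogen genes had a negative value, while 45.2% of all genes tested had a positive one. The median of the list was -0.68 against -0.057 for all genes, and -0.64 against 0.030 without control artery 4. The lowest was -3.07 for the glycogen synthase Gys2 (adjusted p = 0.0706, edgeR), and the highest was -0.49 for Pgm1. Gys2 had 0.288, 4.67, 1.66 and 4.24 CPM in control arteries 1 to 4. The adipocyte markers, with a median log2 fold change of -1.28, summed to 80.3, 666, 252 and 639 CPM in the same arteries. Pygb, highest in control artery 1, did not follow that order. The part of fat tissue in these values was not tested.

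For pyruvate entry into the mitochondrion, 0 of 6 genes tested passed both criteria in edgeR, and 2 passed the FDR alone, against 17.2% of all genes. All 6 had a negative log2 fold change, with a median of -0.75 against -0.057 for all genes (-0.54 against 0.030 without control artery 4). Pdhx was the highest at -0.59. The carrier subunits Mpc1 and Mpc2 had -0.95 and -0.62, at an adjusted p of 0.0107 and 0.0279 from edgeR, and the groups overlapped for neither. Of 3 gluconeogenesis genes tested, 0 were called, and the median was -1.15 (-0.78 without control artery 4). Pck1, which makes phosphoenolpyruvate, had the lowest value at -2.91 (adjusted p = 0.0884, edgeR), while Pck2 had 0.18. Pck1 had 6.91, 165, 27.8 and 139 CPM in control arteries 1 to 4 and 2.18 to 21.4 CPM after injury. The adipocyte markers summed to 80.3, 666, 252 and 639 CPM in these controls, and the part of fat tissue in the Pck1 values was not tested. Of 5 pentose phosphate genes tested, 0 were called, with Rpia highest at 0.25 and Tkt lowest at -0.66 and a median of 0.11 (0.044 without control artery 4).

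With the replicate number as a block, 8.27% of all genes were called, and Hk3 alone of the enzymes, at a log2 fold change of 6.89 (adjusted p = 0.00932, edgeR). Scaling the libraries by their totals only shifted the log2 fold changes of all genes by 0.17 in the median, and the value of Pfkl then turned to 0.076.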

How the data were processed

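mRNA was measured in 4 injured and 4 control carotid arteries. The authors deposited raw read counts for 37209 gene symbols, 1 column per artery. The submitters' processing notes name HISAT2 2.0.4. The counter, genome build, annotation and strand are not given in the sources used here. Group and replicate were taken from the labels, and all 8 columns were used.

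Low counts were removed by edgeR 4.0.16 (filterByExpr, R 4.3.3), which left 14359 genes. After TMM scaling, injured and control arteries were compared by the quasi-likelihood test without covariates, with p-values adjusted over all genes tested (Benjamini-Hochberg). A call required an FDR under 0.05 and more than a 2-fold change, after the study's criteria. Standard errors come from the F statistic. Exact permutation tests, two-sided over 70 relabellings, used log2(CPM + 1) or shares of counts. edgeR was tested on simulated data for this comparison and recovered 72.5% of 200 genes changed 4-fold among 14161 genes.

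Alternatives were other scaling factors, filters and call rules, DESeq2 1.42.0, the replicate block and leaving out each artery. Leaving out control artery 4 with injured artery 3 was chosen after seeing the data. The members and lists were chosen with earlier results of these data known. Of 64 symbols in 7 lists, 60 matched by symbol. Named genes are all members, the tested glycolysis genes and, of the other lists, those called and the highest and lowest, with others chosen after their values were seen (Slc2a1, Mpc2, 6 brain markers and Sox10). Promoters and chromosomes are from RefSeq (GRCr8). Transcript lengths were not used, so levels were not compared between genes.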

Additional observations from a re-analysis of the deposited data

Results flagged for a closer look

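Dixon's ratio, the gap between the highest or lowest artery and the next one as a part of the whole range, was computed for 54 sets of 4 values. It passed its 95% critical value in 19, and about 2.7 would pass by chance if the sets were independent and normally spread. They are not independent, as all come from the same 8 arteries and the shares reuse the same counts. The excess is therefore a description and not a test. The artery set apart was control artery 4 in 10 sets and injured artery 3 in 8.

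In the control arteries, the ratio for control artery 4 as the highest was 0.949 for Hk1 (569 CPM against 162 CPM in the next artery), 0.939 for Gpi (745 against 267 CPM), 0.993 for Pfkp (442 against 51.4 CPM), 0.88 for Pkm (482 against 224 CPM) and 0.875 for Ldha (452 against 179 CPM). Among the other glycolysis genes it was 0.986 for Aldoc, 0.838 for Eno1 and 0.865 for Tpi1. As a percent of the phosphofructokinase counts, control artery 4 gave 0.899 for Pfkp (54.1% against 21.1%) and, as the lowest, 0.843 for Pfkl (13.2% against 28.1%).

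In the injured arteries, the ratio for injured artery 3 as the highest was 0.843 for Hk1 (263 against 141 CPM), 0.902 for Gpi (363 against 205 CPM), 0.912 for Pfkp (153 against 42.1 CPM) and 0.859 for Pkm (288 against 173 CPM). It was 0.89 for Aldoa, 0.913 for Aldoc and 0.891 for Bpgm, and 0.916 for the Pfkp percent of the phosphofructokinase counts (43.1% against 19.8%). Injured artery 4 gave 0.848 for Pgam2 (11.5 against 3.35 CPM).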

How the results depend on the processing

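Hk3 was called under every alternative that tested it, with a log2 fold change from 6.51 to 7.35, and its largest adjusted p in edgeR or DESeq2 was 0.00932. With at least 10 counts in every sample, Hk3 and Pgam2 were no longer tested and 0 members and 0 other glycolysis enzymes were called. Directions turned without control artery 4 for Hk1, Pfkl, Pfkp and Ldha, and for Pfkl (0.076) with library totals only. With 1 artery left out, the log2 fold changes of these enzymes ran from -0.99 to 0.12, -0.198 to 0.058, -1.999 to 0.40 and -0.73 to 0.096, in that order. All were negative again when control artery 4 and injured artery 3 were both left out. With each artery left out in turn, Ldha's percent of lactate dehydrogenase counts differed between the groups by -2.85 to 7.31 percentage points and Pfkp's percent of phosphofructokinase counts by -9.55 to 5.10. The number of genes called, 1562 (1193 higher, 369 lower), was 1007 (715 higher) with at least 10 counts in every sample, 2468 (918 lower) by the FDR alone, 661 (600 higher, 61 lower) when tested against a 2-fold change and 2473 (1800 higher, 673 lower) without control artery 4 and injured artery 3. Leaving out 1 artery gave 1142 to 2398 genes, 945 to 1817 higher and 197 to 581 lower, each highest without control artery 4.

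The FDR alone gave 3 other glycolysis enzymes, 2 control genes, 2 glycogen genes and 2 pyruvate entry genes. Testing against a 2-fold change gave 0 transport, 0 control and 0 glycogen genes. DESeq2 gave 1 gluconeogenesis gene and 2 glycogen genes, and without control artery 4 and injured artery 3 there were 2 other glycolysis enzymes. With library totals only, 0 control genes were called. With 1 artery left out, transport, control, gluconeogenesis and pyruvate entry genes ranged from 0 to 1 and glycogen genes from 1 to 2. Slc2a4 was lost without injured artery 4, and Pdk4 without control artery 2 or any 1 of the injured arteries. The replicate block left 1187 genes, 1137 of which were called without it too. Under the block 234 genes were lower and 0 control genes were called, Pdk4 having an adjusted p of 0.116 in edgeR. Arteries sharing a number had deviations that correlated at 0.406, 0.515, -0.612 and -0.464. Control artery 4 and injured artery 3 stood apart in many genes, which alone could give such signs. The correlations therefore cannot tell whether arteries sharing a number came from the same rat. The numbers were not taken as pairs because no source used here ties them to a rat. Shares per transcript length were not run, as the reference gives no transcript lengths. For each of these the cause was not tested. Depth limits Hk3 in the controls, at 0 to 4 counts.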
